A study of Sus scrofa with 10 samples.

Results

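ACTA2, TAGLN, RGS5, MYH11 and CNN1 are genes of the mural cells, the smooth muscle cells and pericytes that wrap blood vessels. They were chosen by name, with earlier results of these data known. All 5 were found among 25009 gene rows measured in pig hypothalamus, 1 row each. The animals were Iberian x Landrace backcross pigs, 5 with high growth and fatness (the high group) and 5 with low growth and fatness (the low group). A treatment, sex or age is not given in the sources used here. For each gene row the authors deposited 1 level per group in FPKM, a read count scaled by transcript length and library size, with a lower and an upper bound. Those bounds, given in parentheses below, are the only error available, since values of single animals were not analysed here and no comparison has a replicate check.

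Smooth muscle cells of arteries and arterioles contract when myosin thick filaments pull on actin thin filaments, and so set the width of the vessel. Pericytes sit on capillaries within the vessel's basement membrane. In the brain they take part in the upkeep of the blood-brain barrier and carry less of the contractile machinery. Both cell types depend on platelet-derived growth factor and Notch signals from the endothelium.

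All 5 genes had the lower value in high-group pigs, and the low-to-high FPKM ratio ran from 1.33 for RGS5 to 3.15 for ACTA2. Of the 15156 rows compared, 68.0% had the lower value in high-group pigs. That share was 51.0% after median-of-ratios scaling and 50.6% after quantile normalization, and all 5 genes kept the lower value in high-group pigs under both. The deposited intervals of ACTA2 and TAGLN did not overlap, while those of MYH11, CNN1 and RGS5 did. Over all rows, 0.462% had intervals that did not overlap, and 0.435% did so with the higher value in low-group pigs. An FPKM ratio of at least 2 in favour of the low group was found for 3 of the 5 genes (ACTA2, MYH11 and TAGLN) and for 2.13% of all rows. In bulk tissue, fewer cells of a type and less RNA per cell cannot be told apart.

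ACTA2 encodes smooth muscle alpha-actin, the main thin-filament actin of vascular smooth muscle. Its level was 8.68 FPKM (5.40 to 12.0) in high-group pigs and 27.4 FPKM (17.1 to 37.7) in low-group pigs. The lower bound of the low group thus lay above the upper bound of the high group. Taken from the nearest and the farthest bounds, the low-to-high ratio of 3.15 could lie between 1.43 and 6.98. The log2 difference (high minus low, on the log2(FPKM + 1) scale used for all differences here) was -1.55, and 0.534% of compared rows had a value as low or lower. The gene (ENSSSCG00000010447) lies on chromosome 14 of build Sscrofa10.2, from 109852735 to 109871621.

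MYH11 encodes the smooth muscle myosin heavy chain, the motor of the thick filament. It had the lowest level of the 5, 1.76 FPKM (0.926 to 2.59) in high-group pigs and 4.43 FPKM (2.27 to 6.59) in low-group pigs. The intervals shared the stretch from 2.27 to 2.59 FPKM, so the ratio of 2.52 (0.875 to 7.11 from the bounds) was not beyond them. The log2 difference was -0.98. The MYH11 row (ENSSSCG00000000146) lies on an unplaced scaffold, GL893077.1, from base 10937 to 50415. The only other row of that scaffold, ENSSSCG00000020978, ends 1286 bases before it and has no gene name. That row was at 1.65 FPKM (0.761 to 2.54) in high-group pigs and 5.42 FPKM (2.60 to 8.23) in low-group pigs. Its intervals were apart by a small margin, which median-of-ratios scaling closes. The row was singled out after its values were seen. Whether it belongs to MYH11 is not given in the sources used here, which leaves the level of MYH11 uncertain.

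TAGLN encodes transgelin, also called SM22-alpha, an actin-binding protein of smooth muscle. It was at 16.1 FPKM (10.4 to 21.9) in high-group pigs and 37.7 FPKM (23.7 to 51.7) in low-group pigs. The intervals were apart by a small margin, and the ratio of 2.33 could lie between 1.08 and 4.99. After median-of-ratios scaling, which moved the median difference of all rows from -0.10 to -0.0056, the log2 difference went from -1.17 to -1.07. The bounds then met, at 22.785 FPKM (upper, high group) and 22.776 FPKM (lower, low group). The intervals also overlapped after quantile normalization (-1.03), whereas those of ACTA2 stayed apart under both (-1.45 and -1.43). TAGLN (ENSSSCG00000015073) lies on chromosome 9, from 49631072 to 49636680.

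CNN1 encodes calponin 1, which binds actin and restrains the myosin motor. Its level was 3.10 FPKM (1.73 to 4.48) in high-group pigs against 5.60 FPKM (3.01 to 8.19) in low-group pigs, a ratio of 1.81 (0.672 to 4.75 from the bounds). The intervals overlapped between 3.01 and 4.48 FPKM, and the log2 difference was -0.69. CNN1 (ENSSSCG00000013614) lies on chromosome 2, from 70536387 to 70544292.

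RGS5 encodes a regulator of G protein signalling that shortens the response to vasoconstrictor receptors, and it is a widely used marker of brain pericytes. It had the highest level of the 5 in both groups, 32.8 FPKM (23.3 to 42.3) in high-group pigs and 43.6 FPKM (28.7 to 58.6) in low-group pigs. Most of the high group's interval lay inside that of the low group. The ratio was 1.33 (0.677 to 2.51 from the bounds) and the log2 difference -0.40, and 10.4% of compared rows had a value as low or lower. RGS5 (ENSSSCG00000006334) lies on chromosome 4, from 94999826 to 95053682.

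**Figure D1:**
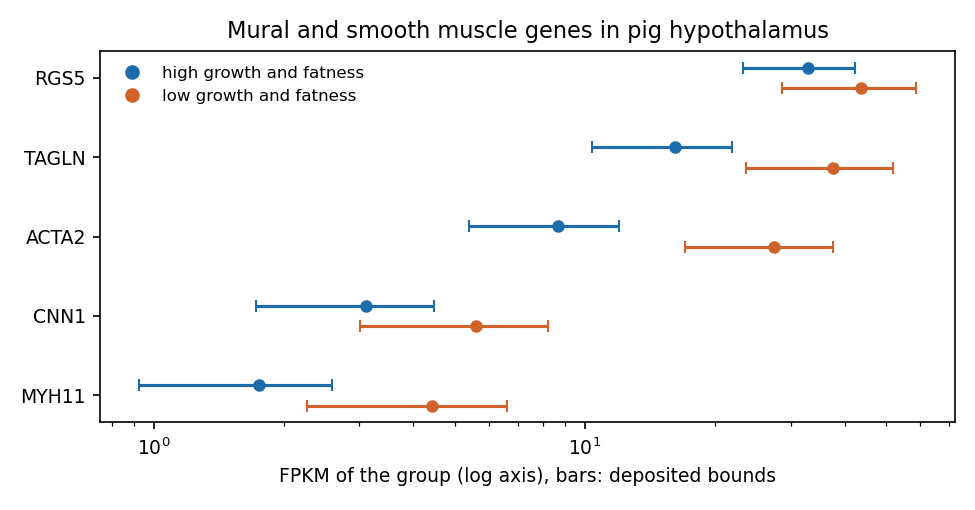
Level of each gene in FPKM on a log axis, 1 point per group of 5 pigs (blue high, orange low), with the deposited bounds as bars. The bars are apart for ACTA2 and TAGLN and overlap for MYH11, CNN1 and RGS5.

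**Figure D2:**
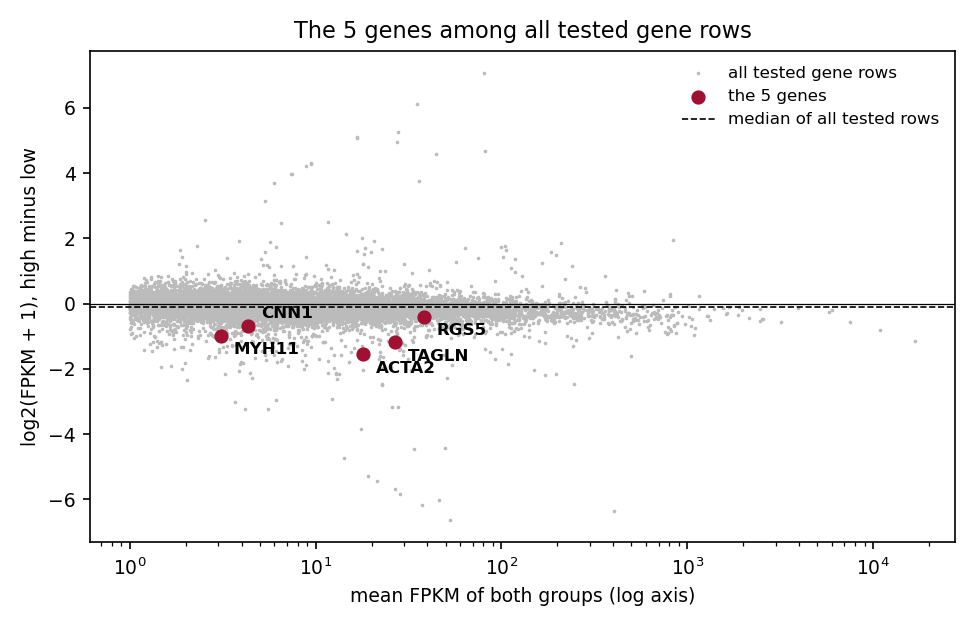
Difference in log2(FPKM + 1), high minus low, against the mean FPKM of both groups on a log axis, for the 15156 compared gene rows (grey) and the 5 genes (red). All 5 lie below the dashed median of all rows (-0.10), RGS5 nearest to it at -0.40 and ACTA2 farthest at -1.55.

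FPKM is scaled by length, so levels of the 5 genes can be ordered within a group. The order was RGS5, TAGLN, ACTA2, CNN1, MYH11 in both groups. In the high group the intervals of RGS5 and TAGLN did not overlap (RGS5 was 2.03 times TAGLN). In the low group they did (1.16 times). TAGLN and ACTA2 overlapped in both groups, as did CNN1 and MYH11. ACTA2 and CNN1 were apart in both, by a factor of 2.80 in high-group pigs and 4.89 in low-group pigs.

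Of the summed FPKM of the 5 genes, RGS5 made up 52.5% in high-group pigs and 36.7% in low-group pigs. The sum itself was 62.5 FPKM in high-group pigs and 119 FPKM in low-group pigs. A ratio of 2 genes within a group does not change when all rows of that group are multiplied by 1 factor. ACTA2 was 0.264 times RGS5 in high-group pigs (0.127 to 0.513 from the bounds) and 0.628 times in low-group pigs (0.292 to 1.31). TAGLN was 0.492 times RGS5 (0.245 to 0.941) against 0.864 times (0.404 to 1.80). MYH11 was 0.0536 against 0.102 times RGS5, and CNN1 0.0945 against 0.128 times. Each of these 4 ratios was higher in low-group pigs, by 1.36-fold (CNN1) to 2.37-fold (ACTA2), but the ranges from the bounds overlapped for all 4. Set against PECAM1, an adhesion molecule of the endothelium, RGS5 was 4.04 times as high in high-group pigs and 4.16 times in low-group pigs. ACTA2 was 1.07 times PECAM1 in high-group pigs and 2.61 times in low-group pigs, again with overlapping ranges (0.497 to 2.22 and 1.18 to 5.75). TAGLN was 1.99 against 3.59 times PECAM1, MYH11 0.216 against 0.422 times and CNN1 0.381 against 0.534 times. The ranges overlapped for these and for RGS5 as well.

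Each of the 5 genes belongs to a family with members outside smooth muscle, and these were followed by family. Overlapping intervals are the common case, since 0.462% of all compared rows had intervals that did not overlap. Among the actins, the smooth muscle gamma-actin ACTG2 was at 0.386 FPKM (0.0726 to 0.700) in high-group pigs and 1.77 FPKM (0.627 to 2.91) in low-group pigs. The skeletal muscle actin ACTA1 was at 2.08 against 5.19 FPKM, and the cardiac actin ACTC1 at 0.341 against 0.417 FPKM, below the filter. The intervals overlapped for all 3. Coding sequences of the muscle actins are very similar and how shared reads were assigned is not given, so the values of ACTA2, ACTA1, ACTG2 and ACTC1 are uncertain relative to each other. The cytoskeletal actins of all cells, ACTB (356 against 518 FPKM) and ACTG1 (562 against 718 FPKM), had overlapping intervals and log2 differences of -0.54 and -0.35, and that of ACTG1 turned positive after quantile normalization. The file names both rows BETA-ACTIN, and their identifiers tell them apart.

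Next to TAGLN, TAGLN2 was at 10.8 FPKM (6.99 to 14.7) in high-group pigs and 18.8 FPKM (11.6 to 26.1) in low-group pigs. The neuronal TAGLN3 was at 74.4 against 79.2 FPKM, a log2 difference of -0.09 that turned positive under both scalings. Among the calponins, CNN2 stood at 2.87 FPKM (1.66 to 4.08) against 5.53 FPKM (3.08 to 7.98), and its difference of -0.76 was close to that of CNN1 (-0.69). CNN3, the calponin with the highest level here, was at 188 against 234 FPKM (-0.31). The intervals of TAGLN2, TAGLN3, CNN2 and CNN3 all overlapped.

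Of the other non-sarcomeric myosin heavy chains, MYH9 was at 11.0 against 13.8 FPKM and MYH10, a form abundant in neurons, at 15.8 against 13.4 FPKM, the reverse order. MYH14 has 2 rows with the same coordinates, at 4.77 against 7.59 FPKM and 2.89 against 3.84 FPKM, so its reads may be split. MYH11 had the lowest difference of these rows, -0.98, against -0.57 to 0.22 for the others, and all 5 rows had overlapping intervals.

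RGS5 has relatives of the same subfamily, which speed up the switching-off of G protein alpha subunits. All 9 compared rows of the subfamily, RGS5 included, had the lower value in high-group pigs, with differences from -0.46 to -0.04, and 8 did after either scaling. RGS5 at -0.40 lay inside that range. Of all compared rows, 68.0% had the lower value in high-group pigs (51.0% after median-of-ratios scaling and 50.6% after quantile normalization). RGS2, which acts on Gq in vessels and neurons, was at 39.2 FPKM (27.8 to 50.6) against 54.4 FPKM (34.9 to 73.9), a difference of -0.46. RGS4, a neuronal form whose row is the next after RGS5 on chromosome 4, was at 47.9 against 58.3 FPKM (-0.28). RGS1 was at 12.2 against 14.3 FPKM, RGS8 at 6.82 against 9.20 FPKM and RGS18 at 1.12 against 1.32 FPKM. RGS3 had 2 rows, at 2.03 against 2.97 and 12.1 against 16.1 FPKM. RGS16 was at 5.47 against 5.65 FPKM, the row whose sign turned under both scalings. RGS21 was near 0 (0.0380 against 0.101 FPKM) and was not compared.

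**Figure D3:**
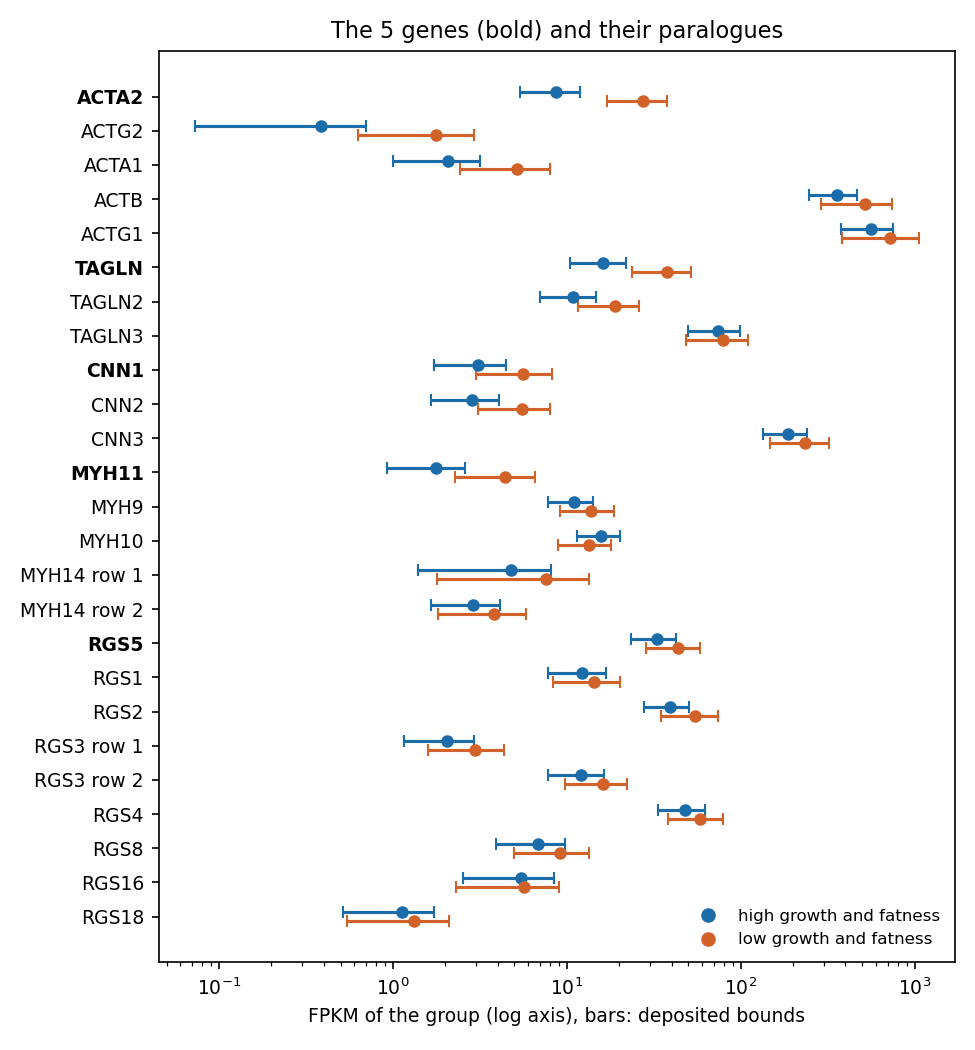
Level in FPKM on a log axis of the 5 genes (bold) and the compared rows of their families, 1 point per group (blue high, orange low) with deposited bounds. ACTA2 and TAGLN are the rows whose bars are apart, while the more abundant ACTB, ACTG1, TAGLN3 and CNN3 have overlapping bars.

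Other genes of the contractile apparatus were taken from a list of 25, of which 21 were matched, with 19 rows compared. The median difference was -0.45, against -0.10 over all compared rows, and 18 rows had the lower value in high-group pigs (17 after quantile normalization). The 18 rows were 94.7% of the list's compared rows, against 68.0% over all compared rows (50.6% after quantile normalization). Intervals did not overlap for 1 of the 19 rows, against 0.462% of all compared rows. This was MYL9, the regulatory light chain that is phosphorylated to start contraction. MYL9 was at 3.94 FPKM (2.16 to 5.71) in high-group pigs and 13.5 FPKM (7.83 to 19.2) in low-group pigs. Its ratio of 3.44 and its difference of -1.56 were close to those of ACTA2, and its intervals stayed apart under both scalings. A ratio of at least 2 in favour of the low group was found for 3 of the 19 rows, against 2.13% of all compared rows. Besides MYL9 these were ACTG2, described above, and the intermediate filament protein desmin, DES. DES was at 1.56 FPKM (0.622 to 2.50) against 3.89 FPKM (1.87 to 5.91). MYLK, the kinase that phosphorylates the light chain, was at 3.50 against 5.56 FPKM, caldesmon CALD1 at 12.2 against 19.3 FPKM and tropomyosin TPM2 at 7.75 against 12.2 FPKM. Smoothelin, SMTN, was the row with the higher value in high-group pigs, at 4.21 FPKM (2.67 to 5.75) against 3.46 FPKM (1.94 to 4.98). The most abundant rows of the list are widely expressed. The 2 rows of the light chain MYL6 were at 154 against 199 and 225 against 299 FPKM, and reads may be split between them. The small heat shock protein CRYAB, found in glia as well as muscle, was at 72.2 against 114 FPKM.

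Genes that identify pericytes and mural cells without being part of the contractile machinery had a median difference of -0.21 over 16 compared rows (16 of 17 genes matched). Intervals did not overlap for 0 of the 16 rows, against 0.462% of all compared rows. Of the 16 rows, 15 (93.8%, against 68.0% of all compared rows) had the lower value in high-group pigs. After median-of-ratios scaling 11 rows did, against 51.0% of all compared rows. The rows that turned were those of ABCC9 and HIGD1B and 1 row each of NDUFA4L2 and PDGFRB. After quantile normalization 13 rows had the lower value there, against 50.6% of all compared rows, and ABCC9 and HIGD1B turned. PDGFRB, the receptor that draws mural cells to the endothelium, has 2 rows, at 3.98 FPKM (2.49 to 5.48) against 4.89 FPKM (2.82 to 6.95) and at 2.51 against 2.63 FPKM. The Notch receptor of mural cells, NOTCH3, has 2 rows as well, at 5.31 against 6.35 FPKM and at 2.68 against 2.48 FPKM. The proteoglycan CSPG4, also called NG2, was at 1.34 against 1.54 FPKM. The potassium channel subunit KCNJ8 was at 1.74 against 2.13 FPKM and its partner ABCC9 at 2.18 against 2.25 FPKM. MCAM, an adhesion molecule of mural and endothelial cells, was at 16.7 FPKM (11.8 to 21.7) against 28.0 FPKM (18.3 to 37.6), a difference of -0.71. CD248, found on pericytes and fibroblasts, was at 0.633 against 1.41 FPKM. The connexin GJA4 differed by -0.46.

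The defining pericyte markers PDGFRB, CSPG4, ANPEP, NOTCH3, KCNJ8 and ABCC9 have 8 rows, since PDGFRB and NOTCH3 have more than 1 each. All 8 rows were added. Together they gave 20.8 FPKM in high-group pigs and 23.8 FPKM in low-group pigs, a ratio of 1.14. Over all 20 matched rows of the list the sums were 54.2 and 71.3 FPKM, a ratio of 1.32. For the 5 genes described here that ratio was 1.90. With 1 value per group the difference between these ratios was not tested.

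**Figure D4:**
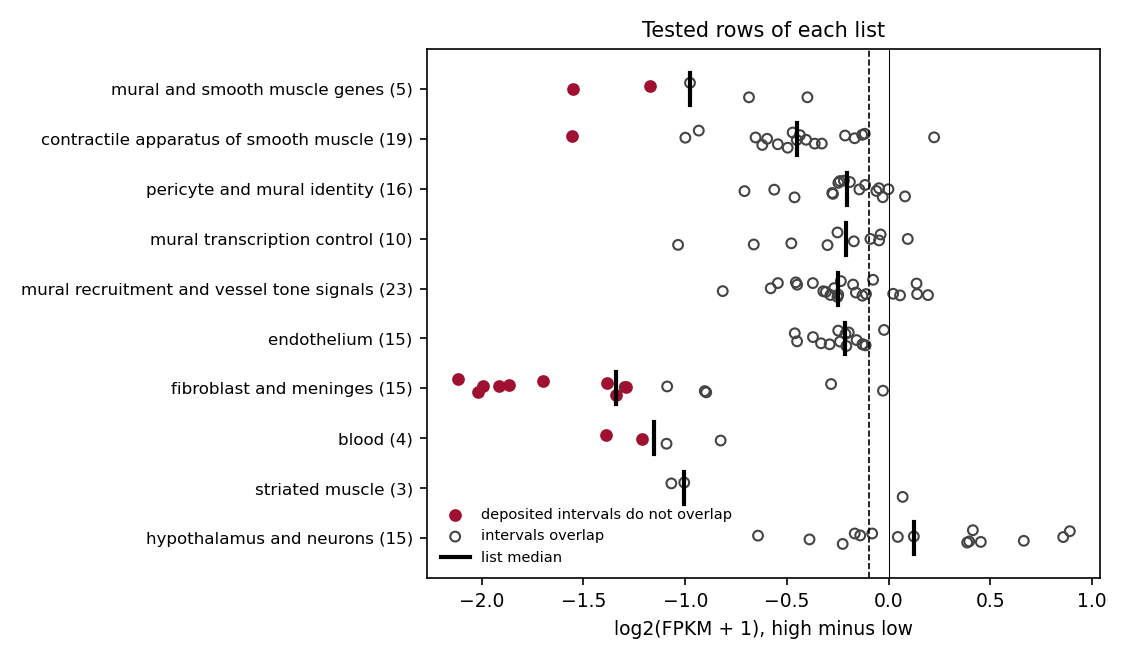
Difference in log2(FPKM + 1), high minus low, for each compared row of 10 lists, with the number of rows in brackets, list medians as black bars and rows with intervals that do not overlap in red. The dashed line is the median of all compared rows (-0.10). The medians run from -1.34 (fibroblast and meninges) to 0.12 (hypothalamus and neurons), and the 5 mural and smooth muscle genes stand at -0.98.

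Transcription factors of mural cells had a median of -0.21 over 10 compared rows (13 of 16 genes matched). Of these rows, 0 had intervals that did not overlap, against 0.462% of all compared rows. The lower value was in high-group pigs for 9 rows (90%), against 68.0% of all compared rows. That fell to 6 rows after either scaling, where HEY2, HEYL and MEF2C turned. The share of all compared rows was then 51.0% (median-of-ratios scaling) and 50.6% (quantile normalization). Serum response factor, SRF, which drives the contractile genes with its cofactors, was at 7.46 FPKM (5.10 to 9.83) against 9.08 FPKM (5.75 to 12.4). Its cofactor MKL1 was at 4.15 against 3.82 FPKM, and MYOCD was not matched to a row. KLF4, a factor known to repress contractile genes, was at 5.11 against 11.5 FPKM, with intervals that overlapped between 5.05 and 7.82 FPKM. The file calls that row KLF2 and the reference table pairs its identifier with KLF4, so its name is uncertain. TBX18, a mural cell factor, was at 0.883 against 1.98 FPKM and PRRX1 at 2.82 against 4.33 FPKM. HEY1, a Notch target, was at 7.54 against 9.51 FPKM and MEF2C, which neurons express too, at 16.2 against 17.3 FPKM.

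Signals between endothelium and mural cells had a median of -0.25 over 23 compared rows (24 of 25 genes matched). Of these, 18 (78.3%) had the lower value in high-group pigs, against 68.0% of all compared rows. Intervals did not overlap for 0 of the 23 rows, against 0.462% of all compared rows. After median-of-ratios scaling and quantile normalization 17 and 18 had the lower value there, against 51.0% and 50.6% of all compared rows. PDGFB, the endothelial ligand of PDGFRB, was at 3.89 FPKM (1.45 to 6.33) against 5.11 FPKM (1.87 to 8.36). TGFB3 had the lowest difference, -0.82, at 0.962 FPKM (0.460 to 1.46) against 2.45 FPKM (1.23 to 3.68). TGFB1 was at 12.7 against 17.7 FPKM, and its receptor TGFBR2 had 2 rows, at 8.05 against 11.4 and 16.5 against 25.2 FPKM. ANGPT1, the mural ligand of the endothelial receptor TEK, was at 3.62 against 5.74 FPKM. GUCY1B3, a subunit of the nitric oxide receptor, was at 30.5 against 29.3 FPKM.

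Markers of other cell types were read beside these values. Peptides of hypothalamic neurons were present. AVP was at 472 FPKM in high-group pigs and 354 FPKM in low-group pigs, OXT at 55.5 against 34.7 FPKM and PMCH at 167 against 91.8 FPKM. HCRT was at 4.16 against 1.78 FPKM. NPY (7.25 against 11.9 FPKM), POMC (84.0 against 110 FPKM) and AGRP (7.74 against 8.81 FPKM) had the lower value in high-group pigs. Over the 15 compared rows of the hypothalamus and neuron list, 9 were higher and 6 lower in high-group pigs, with a median of 0.12. Intervals were apart for 0 of these rows (1, that of PMCH, after quantile normalization), against 0.462% of all compared rows. The neuronal SNAP25 and SYT1 were at 394 against 461 and 134 against 147 FPKM. Endothelial rows had a median of -0.21 over 15 compared rows, from -0.46 (PODXL, 12.8 against 17.9 FPKM) to -0.02. Among them 0 had intervals that did not overlap, against the same 0.462% of all compared rows. PECAM1 stood at 8.13 FPKM (5.40 to 10.9) against 10.5 FPKM (6.55 to 14.4). The tight junction gene CLDN5 was at 11.7 against 13.1 FPKM. EMCN was at 9.56 against 11.5 FPKM, KDR at 5.83 against 8.33 FPKM and CD34 at 4.75 against 6.45 FPKM.

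Fibroblast and meningeal rows, listed with earlier results of these data known, had a median of -1.34 over 15 compared rows. That was lower than the median of the 5 genes (-0.98). Intervals did not overlap for 9 rows (7 and 6 after the scalings), against 0.462% of all compared rows. The 9 were the rows of COL3A1, AEBP1, ISLR, DCN and SLC6A13, both rows of COL1A1 and 1 of 2 rows each of COL1A2 and FN1. The other COL1A2 row was at 3.50 against 8.57 FPKM, and the other FN1 row at 5.56 against 5.69 FPKM, a difference of -0.03 that turned positive under both scalings. That other FN1 row lies on chromosome 1, and the called FN1 row on chromosome 15. The reference table gives the name FN1 to the called row only, so the name of the other is uncertain. The defining markers COL1A1, COL1A2, COL3A1, DCN and LUM summed to 48.5 FPKM in high-group pigs and 164 FPKM in low-group pigs, and none was at 0. These sums add 7 rows, 2 each for COL1A1 and COL1A2. Red cell markers HBB, HBA and ALAS2 summed to 159 against 389 FPKM, and the intervals of HBB and HBA did not overlap. After quantile normalization those of HBB did. Of the striated muscle list only 3 of 10 matched rows were at a mean of 1 FPKM or more. These were ACTA1, TNNT1 (3.20 against 7.81 FPKM) and MYH7 (2.48 against 2.31 FPKM), while the muscle creatine kinase CKM was at 0.101 against 0.962 FPKM. ACTA2, TAGLN and CNN1 are expressed by myofibroblast-like cells as well as mural cells. The part of fibroblast, meningeal, red cell and striated muscle RNA in the differences of the 5 genes was not tested.

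The rows next to ACTA2, TAGLN, CNN1 and RGS5 on the genome all had overlapping intervals, as did all but 0.462% of compared rows. The row next to MYH11, described above, had intervals that did not overlap. STAMBPL1, 8458 bases before ACTA2, was at 6.42 against 6.10 FPKM, and FAS, after it, at 1.56 against 1.70 FPKM. PCSK7, whose row starts 189 bases after that of TAGLN, stood at 4.31 FPKM (2.77 to 5.86) against 4.18 FPKM (2.42 to 5.94), and SIDT2, before it, at 19.1 against 16.7 FPKM. ECSIT (10.9 against 12.9 FPKM) and ELOF1 (31.7 against 38.6 FPKM) flank CNN1, with differences of -0.22 and -0.28. NUF2 (1.10 against 1.64 FPKM) and RGS4 flank RGS5, with differences of -0.33 and -0.28. No row of the file overlapped any of the 5 genes.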

How the data were processed

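RNA from the hypothalamus of 10 pigs was measured by RNA-seq in 2 groups of 5. The values are FPKM, deposited by the authors once for each gene row in each group, with lower and upper confidence bounds, per the file headers. The submitters' processing notes name TopHat2 2.0.5, Bowtie2, Cufflinks 2.0.2 and Sscrofa10.2, without their roles. The level of the bounds and the strand setting of the libraries are not given in the sources used here.

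Rows with an estimate in both groups, a value above 0 in both and a mean of at least 1 FPKM were compared (15156 of 25009). A further 125 rows at that mean were listed at 0 in 1 group and were left out, since a 0 can be a failed estimate. That exclusion was chosen after seeing the data. With those rows kept, 70 of 15281 had intervals that did not overlap, the same number as without them. Differences are log2(FPKM + 1), high minus low, which understates the change of low genes. Medians of lists were taken over rows, so a gene with several rows counts once per row. A row was called where the deposited intervals of the groups did not overlap. That is not a test across animals, and no p-value was computed. Calling, median-of-ratios scaling and differences were tested on simulated data with known fold changes, as a check of the arithmetic only. How often rows are called or missed wrongly, given the spread between animals, was not tested.

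The members and all lists were chosen with earlier results of these data known. The rule for names took the 5 genes, their paralogues, a fixed set of mural regulators and vessel genes, and in each list the called rows, the 3 highest and the 3 with the largest difference. Other genes of these lists that are named in the results above were chosen after their values were seen. No gene was named for a pattern like that of the members, because each gene has only 1 value per group. List genes were matched by the file's name or, for 10 rows, by identifier through a reference table. Of these, 4 had no name in the file, and 6 had another name there while no row bore the list's name. In 6 further rows the file's name was kept although the reference table gives another, among them VWF, MYH1 and MYH7. Python 3.11.15, pandas 2.3.3 and numpy 2.4.6 were used. Alternatives were pseudocounts of 0.1 and 0.5, no filter, a mean of at least 5 FPKM, median-of-ratios scaling, quantile normalization, 1 row per symbol and calling by an FPKM ratio of at least 2.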

Additional observations from a re-analysis of the deposited data

How the results depend on the processing

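No difference of the 5 genes and no list median changed sign under any alternative run (103 comparisons, 84 of them within the limits used: same overlap call, medians within 0.1, counts within 1.5 times). TAGLN lost its separation of intervals after median-of-ratios scaling (-1.07) and quantile normalization (-1.03), so 1 in place of 2 of the 5 genes was called under each. Over all rows 55 and 53 in place of 70 had intervals apart, and the share higher in the low group went from 66 of 70 to 49 of 55 and 47 of 53. Both scalings moved the contractile median from -0.45 to -0.34 and -0.30, and quantile normalization moved the blood median from -1.15 to -1.01. Calling by an FPKM ratio of at least 2 gave 450 rows. With a pseudocount of 0.1 the medians were -1.22 for the 5 genes, -1.47 for fibroblast and meninges, -1.35 for blood and -1.26 for striated muscle, and with 0.5 they were -1.13 for the 5 genes and -1.14 for striated muscle, as a smaller pseudocount shrinks low genes less. Without a filter the blood and striated muscle medians were -0.69 and -0.67. With a stricter filter, a mean of 5 FPKM or more, where MYH11 and CNN1 drop out, the median was -1.17 for the 5 genes, -0.46 for pericyte and mural identity and -1.30 for blood. Apart from the pseudocounts and filters, the cause was not tested. No paired analysis was possible because the animals of a group share 1 deposited level, and leaving out single animals could not be run for the same reason. Depth is unknown. The interval half-widths of the 5 genes were 29.0% to 48.8% of the value.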
